A study of Mus musculus with 6 samples.

Results

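The cadherin superfamily was followed in RNA sequencing of cultured mouse satellite cells, the resident stem cells of skeletal muscle. Its members were taken by name from the main expression table, as every gene called Cdh or Pcdh with a number or cluster letter, together with Fat1 to Fat4, Dchs1, Dchs2 and Celsr1 to Celsr3. This gave 92 of 27366 features. They comprised 5 type I and 10 type II classical cadherins, 5 other cadherins, 12 unclustered protocadherins, 9 alpha, 21 beta and 21 gamma clustered protocadherins, 6 Fat and Dachsous genes and 3 Celsr genes. The names alone chose the members, but the family was taken up with results of the knockout and control comparison in view, so differences between those groups are given as a description and support nothing further.

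Cadherins are calcium-dependent adhesion proteins built from repeated extracellular cadherin domains. Classical cadherins bind the same cadherin on the neighbouring cell and are tied to actin through catenins. M-cadherin (Cdh15) and N-cadherin (Cdh2) hold satellite cells against the muscle fibre and serve myoblast contact and fusion. Clustered protocadherins are expressed in combinations from linked promoters and serve cell recognition, mostly studied in neurons. The very large Fat and Dachsous cadherins and the seven-pass Celsr receptors act in planar polarity.

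The 6 libraries were all made from total RNA of skeletal muscle satellite cells in growth culture, with serum and basic FGF, at day 4. The labels give 3 of them the genotype control and 3 the genotype Islr knockout. Islr encodes a secreted leucine-rich repeat protein. The series design says that cells were sorted on whether Islr was present. The sources used here do not give the allele, any Cre driver, or the strain, age and sex of the mice. They also do not say whether each library had its own animal or culture, so a p-value here covers only the spread among these libraries, which may be technical.

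Library totals ran from 16456917 to 20531276 reads on genes. Islr did not follow the labels: it stood at 181, 12.8 and 1579 scaled reads in control 1, 2 and 3 and at 257, 7.4 and 10.9 in Islr knockout 1, 2 and 3. Of these, the library labelled Islr knockout 1 was above control 1, and that labelled control 2 was near Islr knockout 2 and 3. Every library and direction below is named by its label. The satellite cell and myoblast genes Pax7 and Myod1 were present in every library (Pax7 at least 1233, Myod1 at least 18888 scaled reads). Myog, a marker of differentiating myocytes, ranged from 417 to 43370 scaled reads and was lowest in both libraries of number 2. Both groups carry the replicate numbers 1 to 3, and libraries of the same number deviated together, so values are listed below in the order of numbers 1, 2 and 3. One column name has a pair of digits exchanged against the label of control 1.

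Satellite cell cadherins headed the family by level. FPKM, the deposited measure that divides reads by gene length and depth, allows levels of different genes to be compared. The gene length behind it is not stated. Cdh15 averaged 84.1 ± 40.7 FPKM (SD, n = 6), Cdh2 69.6 ± 12.1, and Cdh11, a type II cadherin of mesenchymal cells, 37.4 ± 15.2. Next came Fat1 at 23.4, Cdh13 (the membrane-anchored T-cadherin) at 22.2, Pcdhgc3 at 15.2 and Pcdh7 at 11.6 FPKM. Per kb of annotated exon the order of these changed in 1 place, with Cdh13 (164 scaled reads per kb) below Pcdhgc3 (237) and Pcdh7 (173). In the order of mean FPKM the ranges of neighbours overlapped for all of the first 24 members. Cdh2 nevertheless lay above Cdh11 in 6 of 6 libraries, whereas Cdh15 lay above Cdh2 in 4 of 6. Only 21 of 92 members (22.8%) averaged at least 1 FPKM, against 43.5% of all features.

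**Figure D1:**
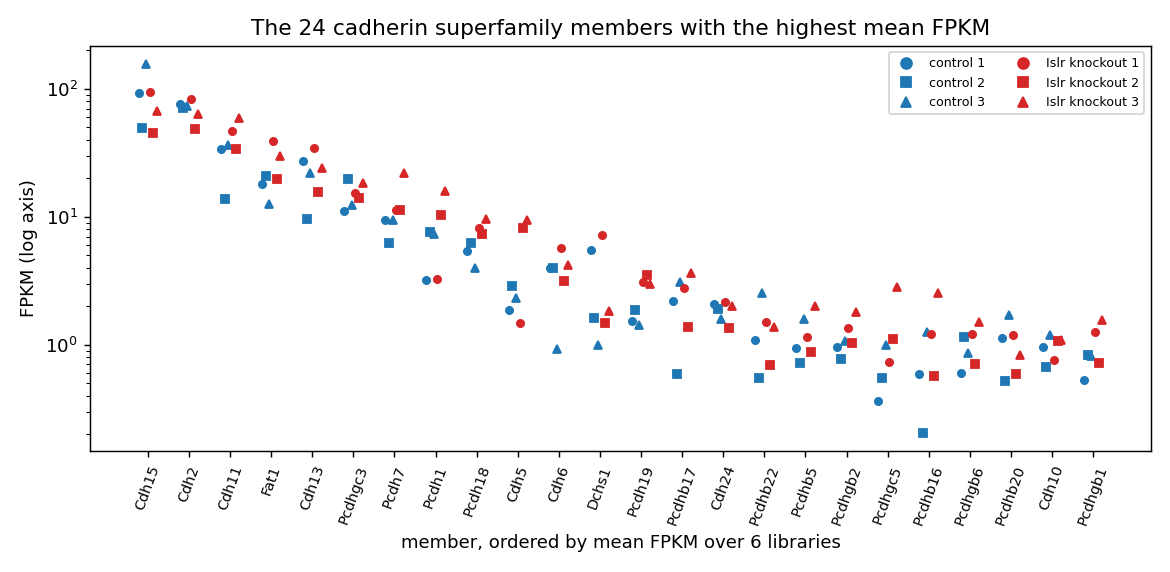
FPKM (log axis) of the 24 members with the highest mean, 1 point per library, colour for the group label and shape for the replicate number. Cdh15, Cdh2 and Cdh11 stood highest with means of 84.1, 69.6 and 37.4 FPKM, and the points of neighbouring members overlapped.

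The first comparison set the libraries labelled Islr knockout against those labelled control. Members with the smallest p were unclustered protocadherins and Cdh17, all with higher values in the knockout libraries, while the highest classical cadherins Cdh15 and Cdh2 had lower means there. None of these differences passed the threshold. limma was fitted to log2(scaled reads + 1) of all 20344 features with a mean of at least 1 scaled read, which included 83 of the 92 members. It called 0 members and 0 features (0.0%) at an adjusted p under 0.05. At an unadjusted p under 0.05 it listed 4 of 83 members, all higher (Pcdh19, Cdh17, Pcdh7 and Pcdh18). Of all features tested it listed 1.15% as higher and 1.36% in either direction. edgeR and DESeq2 also called 0 members. At an unadjusted p under 0.05 in either direction, edgeR listed 5 of 67 members against 1.14% of its features, and DESeq2 8 of 92 against 1.17%. With the replicate block, limma called 0 members and listed 15 at an unadjusted p under 0.05, all higher (18.1%), against 3.66% of all features in that direction. Fold changes on this scale understate the change of genes with few reads.

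Of the 83 members tested, 69 (83.1%) were on the higher side in the libraries labelled knockout, against 53.0% of all features. The share of all features varied with level. At a mean of 10 to 100 scaled reads it was 59.7%, against 42 of 48 members (87.5%). Above 100 it was 48.5%, against 14 of 18 (77.8%), and from 1 to 10 it was 56.7%, against 13 of 17 (76.5%). Clustered protocadherins made up 45 of the 83. These lie side by side and many share exons, so the members are not independent. The median log2 difference was 0.46 over members and 0.03 over all features. Within replicate numbers, 29 of 83 members were higher in all 3 pairs, where the share of all features was 12.2%, and 4 were lower in all 3, where it was 12.1%. Those 4 were Cdh18 and, named after their values were seen, Pcdh10, Pcdhb3 and Pcdhga12. In 7 members every knockout library lay above every control library, against 2.65% of all features, and in 1, Pcdhga12, every one lay below, against 2.11%. The lean to the higher side rested partly on single libraries: without control 2 it held for 49 of 83 members (59.0%), against 50.8% of all features, and without knockout 3 for 54 (65.1%), against 52.3%. Without knockout 1 it held for 64 (77.1%), against 49.3%. In bulk RNA, fewer cells of a type and less RNA per cell cannot be told apart.

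**Figure D2:**
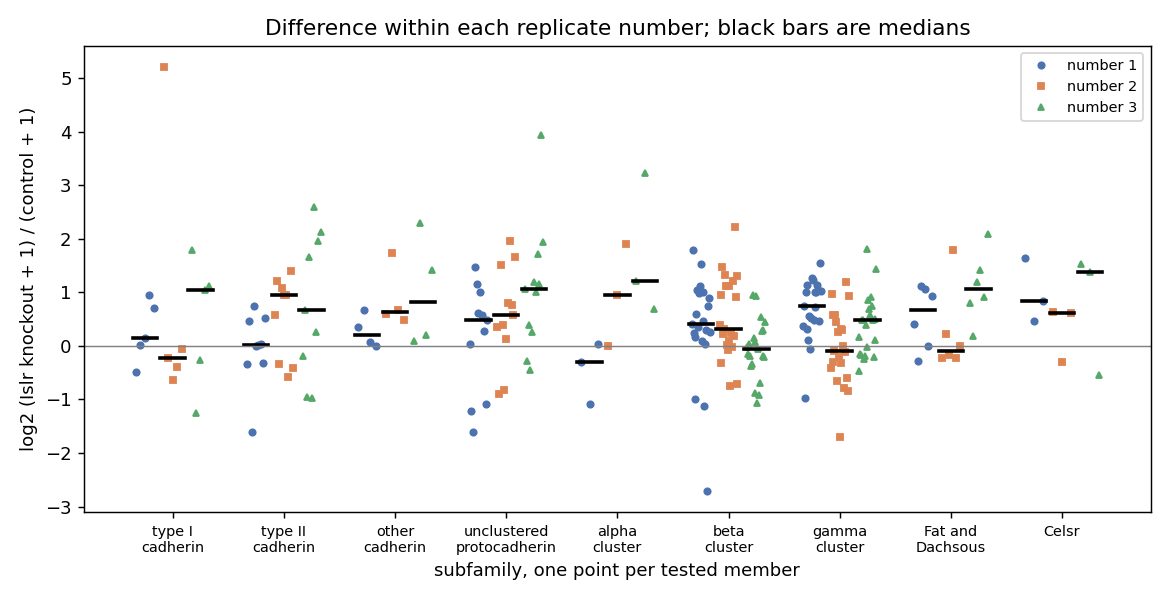
Log2 ratio of scaled reads + 1, knockout over control label, within each replicate number for the 83 tested members, 1 point per member and number, black bars for medians. Over all members the medians were 0.47, 0.32 and 0.46 for numbers 1, 2 and 3, and the beta cluster median in number 3 was below 0 at -0.05.

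Among the unclustered protocadherins, Pcdh19 held the most even differences. Pcdh19 is a delta protocadherin whose loss causes an X-linked epilepsy in humans; it lies on chromosome X from 133582860 to 133688987 (GRCm38, minus strand). Pcdh19 stood at 294, 378 and 257 scaled reads in the control libraries and at 597, 657 and 517 in the knockout libraries. The groups did not overlap, and the 3 pairs differed by 1.02, 0.80 and 1.01 on the log2 scale, in each case upward. The log2 fold change was 0.94 ± 0.27 (SE) with a 95% confidence interval from 0.33 to 1.56, but the limma adjusted p was 1.0. Without control 2 the log2 fold change was 1.09 and without knockout 1 it was 0.93. Over all alternatives the adjusted p of Pcdh19 ran from 0.2195 to 1.

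Pcdh7, a delta protocadherin on chromosome 5 (57717967 to 58133230), stood at 1544, 1074 and 1463 scaled reads under the control label and at 1869.9, 1833 and 3244 under the knockout label. Knockout 3 alone was far above the rest, yet the lowest knockout library was still above every control. Its log2 fold change was 0.73 ± 0.30 (SE; limma adjusted p = 1.0). Pcdh18, on chromosome 3 (49743296 to 49757325), stood at 519, 632 and 361 against 794, 694 and 829 scaled reads. The gap between the groups was narrow, from 632 in control 2 to 694 in knockout 2, and the log2 fold change was 0.65 ± 0.28 (SE; limma adjusted p = 1.0).

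**Figure D3:**
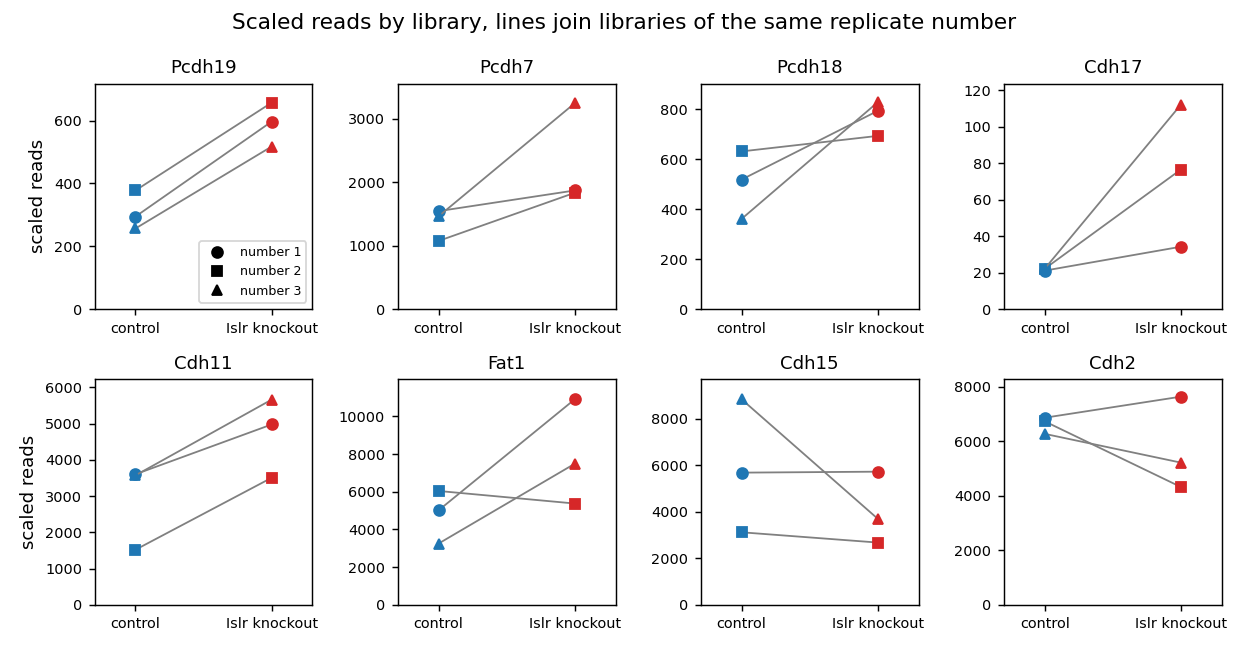
Scaled reads (linear axis from 0) of 8 members in each library, with lines joining control and knockout of the same replicate number. Pcdh19, Pcdh7, Pcdh18 and Cdh17 lay higher in all 3 knockout libraries than in any control; Cdh11 was higher within each pair, and Cdh15 and Cdh2 were not.

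The windows upstream of Pcdh19 and Pcdh18 are examples from the members whose groups did not overlap and that the RefSeq promoter table covers. Both are printed from GRCm38.p6, 5′ to 3′ on the gene's strand. Capitals mark ATTGG, the reverse complement of the CCAAT motif, which was picked after these sequences had been read. The windows of Pcdh7 and Fat2, which met the same conditions, held 0 CCAAT motifs on either strand and are not shown. The Pcdh19 window is chrX:133688994-133689243 on the minus strand. The Pcdh18 window is chr3:49757326-49757566 on the minus strand, without the bases that fall in an annotated exon.
Pcdh19: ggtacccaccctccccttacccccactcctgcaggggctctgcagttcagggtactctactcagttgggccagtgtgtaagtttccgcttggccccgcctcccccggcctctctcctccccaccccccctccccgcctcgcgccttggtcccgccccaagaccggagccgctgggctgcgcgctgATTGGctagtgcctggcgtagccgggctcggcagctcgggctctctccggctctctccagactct
Pcdh18: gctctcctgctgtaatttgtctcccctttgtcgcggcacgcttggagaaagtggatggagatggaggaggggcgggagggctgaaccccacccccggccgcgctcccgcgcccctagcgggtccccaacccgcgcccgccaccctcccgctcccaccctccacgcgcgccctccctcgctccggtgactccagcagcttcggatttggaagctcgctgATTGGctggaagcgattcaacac

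The CCAAT motif ended 61 bases before the RefSeq start of Pcdh19 and 28 bases before that of Pcdh18. Of 92 members, 26 were matched in the promoter table, with 27 windows of 250 bases before the start. CCAAT occurred on either strand in 13 of these windows (48.1%), against 33.8% of all 32851 windows of that length. Those 13 include the Pcdh19 and Pcdh18 windows, from which the motif was picked, so the difference is partly built in. Both windows of Pcdh9 are counted among them as well. The E-box letters CANNTG, which myogenic factors of the MyoD family can bind, occurred in 12 (44.4%), against 66.2% of all. Members held a median of 11 CG dinucleotides per window against 6 over all windows. The motifs can overlap where CCAAT is followed by TG, and a match is a description of the letters only.

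In the other unclustered protocadherins the groups overlapped. Pcdh1, the member of this group with the most FPKM after Pcdh7, stood at 322, 805 and 701 scaled reads under the control label and at 332, 1032 and 1459 under the knockout label, so number 1 was low in both groups. Pcdh9 stood at 28.9, 29.1 and 59.7 against 41.1, 94.1 and 231.0 scaled reads. It was higher within each pair, but the groups overlapped; its log2 fold change was 1.36 ± 0.66 (SE; limma adjusted p = 1.0). Pcdh20, described after its values were seen, stood at 11.1, 47.8 and 21.3 against 17.1, 189 and 72.8. Pcdh8, Pcdh10, Pcdh11x, Pcdh12 and Pcdh15 averaged at most 10.1 scaled reads in either group, except Pcdh8 under the knockout label (12.3 ± 14.1), where knockout 3 held 27.6. Pcdh17 overlapped widely between groups, at 12.2 to 63.9 against 21.2 to 77 scaled reads.

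Among type I classical cadherins, the 2 abundant ones had lower means under the knockout label and the 3 scarce ones higher means, all within overlapping ranges. Cdh15, the M-cadherin gene on chromosome 8 (122847966 to 122867397), stood at 5686, 3121 and 8839 scaled reads under the control label and at 5727, 2679 and 3702 under the knockout label. Only number 3 differed much, by -1.26 on the log2 scale, against 0.01 and -0.22 in numbers 1 and 2. Its log2 fold change of -0.49 ± 0.43 (SE) had a 95% interval of -1.45 to 0.48, with a limma adjusted p of 1.0. The differentiating myocyte marker list was also lower under the knockout label in number 3, and slightly in number 1. In number 2 the list was higher, whereas Cdh15 was not. The 12 genes of the list summed to 498920, 4570 and 269170 scaled reads for control and to 460770, 16781 and 54708 for knockout. Of these, Myh8 was at 0 in 1 or more libraries. The part of those cells in the Cdh15 values was not tested.

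Cdh2 stood at 6867, 6734 and 6275 scaled reads against 7640, 4326 and 5220.2, a log2 fold change of -0.25 ± 0.28 (SE; limma adjusted p = 1.0). Its controls were tight, and the knockout libraries spanned them. Cdh4, the R-cadherin gene, stood at 21.1, 39.6 and 13.6 against 35.4, 37.8 and 31.0, with overlap. Cdh1, the epithelial E-cadherin gene, was scarce and irregular, at 21.1, 0 and 5.1 against 14.8, 36.0 and 20.1. Beside it, the epithelial list of 12 genes summed to 897, 2342 and 724 against 535, 2905 and 2520.1 scaled reads. Cldn4 alone, at 731, 2213 and 496 against 289, 2451 and 1992, made up most of that sum in every library. Of the listed genes 8, Epcam and Krt5 among them, were at 0 in at least 1 library. The part of the list in the Cdh1 values was not tested. Cdh3, the P-cadherin gene, averaged 19.5 ± 3.59 against 29.8 ± 10.8.

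Type II cadherins were led by Cdh11, which supplied 77.1% of their reads. Cdh11, on chromosome 8 (102632095 to 102785642), stood at 3601, 1519.6 and 3570.2 scaled reads under the control label and at 4973, 3503 and 5658 under the knockout label. It was higher in all 3 pairs, by 0.47, 1.20 and 0.66 on the log2 scale, although knockout 2 fell within the range of the controls. Its log2 fold change was 0.78 ± 0.38 (SE) without the block (limma adjusted p = 1.0), and the number 2 libraries were the lowest of each group. The fibroblast and fibro-adipogenic list of 12 genes summed to 9213.5, 5373 and 15115 for control and to 7890.3, 10538 and 13896 for knockout. Its sum was thus lower under the knockout label in numbers 1 and 3 and higher only in number 2. Gsn and Col3a1 made up most of that sum. In number 3 they stood lower under the knockout label, at 6347 against 4703 and 7422 against 6378.5. Dcn (478 against 1388), Pdgfra (165 against 418) and Ly6a (453 against 664) stood higher there. Of the 12 genes in the list, 11 were on the higher side in the fit. Dpp4, Dpt, Pi16 and Clec3b were at 0 in some library and nearly equal in number 3. The part of the list in the Cdh11 values was not tested.

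Cdh5, the VE-cadherin of endothelial junctions, stood at 139, 226 and 161 scaled reads under the control label and at 111, 598 and 633 under the knockout label. Numbers 2 and 3 were thus higher and number 1 was lower. The 12 endothelial markers summed to 389, 691 and 552 for control and to 388, 1441 and 1159 for knockout. Their sum was thus nearly equal in number 1 and higher in numbers 2 and 3. All 12 were on the higher side in the fit, and none was at 0 in any library. Single markers did not all follow Cdh5. In number 1, Kdr stood at 96.7 against 115 and Flt1 at 31.1 against 20.5. Pecam1 itself stood at 26.7, 168 and 101 against 27.4, 328 and 198. Their part in the Cdh5 values was not tested. Cdh19, a cadherin of Schwann and neural crest cells described after its values were seen, stood at 20.0, 47.8 and 27.3 against 34.2, 102 and 88.7. Sox10, which defines those cells, stood at 51.1, 83.9 and 43.5 against 31.9, 293 and 276, and the whole Schwann cell and glia list summed to 1353 to 2580 against 2103 to 3457 with Gfap at 0 in some library. Of its 11 tested genes 8 were on the higher and 3 on the lower side. Erbb3, at 1862, 282 and 943 against 2629.7, 252 and 375, made up much of that sum and was lower in numbers 2 and 3; the part of the list was not tested.

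The remaining type II cadherins had overlapping groups. Cdh6 averaged 455 ± 281 against 641 ± 205 scaled reads, with control 3 alone low at 131. Cdh24 averaged 121 ± 21.3 against 115 ± 26.9 and Cdh10 65.0 ± 14.9 against 65.4 ± 10.5. Cdh8, Cdh20 and Cdh22 were at 0 in at least 2 libraries each. Cdh18 was nearly confined to numbers 2 and 3, as described with the replicate numbers.

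Cdh17, the liver-intestine cadherin with 7 cadherin repeats, was the sharpest case among the other cadherins. It stood at 21.1, 22.1 and 22.2 scaled reads in the control libraries and at 34.2, 76.6 and 112 in the knockout libraries. All knockout libraries lay above a very tight control group and spread widely among themselves. Its log2 fold change of 1.57 ± 0.55 (SE) had a 95% interval of 0.31 to 2.83, with a limma adjusted p of 1.0. Cdh13 stood at 2313, 864 and 1745 against 2966, 1312 and 1852, a difference upward in each pair that was small beside the spread between numbers. Cdh23, the hair cell tip-link cadherin, averaged 85.2 ± 41.3 against 100.1 ± 33.3, and Cdh16 and Cdh26 were at 0 in at least 2 libraries each.

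All 6 Fat and Dachsous genes and all 3 Celsr genes were on the higher side, with medians of 0.53 and 0.52 on the log2 scale, and 0 of the 9 passed. Fat1, a giant cadherin on chromosome 8 (44935447 to 45052257) known for muscle shape and planar polarity, stood at 5015, 6045 and 3252 scaled reads against 10907, 5379 and 7488. Knockout 1 and 3 lay above every control and knockout 2 did not; the log2 fold change was 0.72 ± 0.35 (SE; limma adjusted p = 1.0). Fat4, the receptor that binds Dachsous 1, stood at 87.8, 139.8 and 53.7 against 168, 139.3 and 231.0, with number 2 almost equal under both labels. Its log2 fold change was 1.00 ± 0.45 (SE; limma adjusted p = 1.0). Dchs1 followed the replicate numbers and not the labels. Fat2, described only after its values were seen, had groups that did not overlap, at 1.1, 1.2 and 0 against 3.4, 6.5 and 1.7 scaled reads. Such values are 0 to 7 reads. Fat3 was at 0 in both libraries of number 1.

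The Celsr receptors were low. Celsr2 stood at 59.99, 117 and 42.6 scaled reads against 83.3, 95.03 and 112, Celsr3 at 21.1, 10.5 and 61.4 against 38.8, 16.6 and 41.8, and Celsr1 at 5.6, 14.0 and 3.4 against 19.4, 22.1 and 11.7. The groups of each overlapped, those of Celsr1 only through control 2 and knockout 3. Its log2 fold change was 1.26 ± 0.68 (SE; limma adjusted p = 1.0).

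The clustered protocadherins lie side by side on chromosome 18 and differed strongly in level between clusters. Genes of the alpha cluster share their last exons with each other, as do those of the gamma cluster, and the beta genes are near copies. How reads shared by such genes were assigned, and whether strand was used, is not stated in any source used here, so values of single genes are uncertain. By the annotation, 38.5% of the exon bases of Pcdhgc3 and 53.4% of those of Pcdha11 are also exon of another gene.

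The alpha cluster was nearly silent. Its 9 genes together summed to 13.3, 0 and 6.8 scaled reads under the control label and to 8.0, 8.3 and 31.8 under the knockout label. No alpha gene had reads in all 6 libraries, and only Pcdha11, Pcdha9 and Pcdhac2 reached the mean of 1 scaled read needed for the test. Pcdha11 stood at 4.4, 0 and 3.4 against 3.4, 0 and 9.2, Pcdha9 at 1.1, 0 and 0 against 0, 0.92 and 8.4, and Pcdhac2 at 4.4, 0 and 1.7 against 4.6, 2.8 and 3.3. Differences between groups were not detectable at this depth.

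The gamma cluster was dominated by Pcdhgc3, a C-type isoform gene, with 58.9% of the cluster's reads and 52.3% to 69.6% by library. Pcdhgc3 stood at 979, 1823 and 1013 scaled reads under the control label and at 1355, 1202 and 1442 under the knockout label. Control 2 was the highest of all, so the groups overlapped fully, and the log2 fold change was 0.13 ± 0.30 (SE; limma adjusted p = 1.0). Of the 21 gamma genes, 18 were on the higher side, and the median log2 difference was 0.46. In all 3 pairs 6 were higher, where the share of all features was 12.2%. By number the median differences were 0.75, -0.10 and 0.48, so number 2 did not share the lean.

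In 2 of the 21 gamma genes, both of at least 10 scaled reads, every knockout library lay above every control library. The share of all features was 2.65%. Pcdhgb4 stood at 41.1, 60.6 and 50.3 scaled reads against 68.5, 74.7 and 75.3, a log2 fold change of 0.53 ± 0.41 (SE). Pcdhga11 stood at 23.3, 17.5 and 22.2 against 39.9, 35.1 and 25.1, a log2 fold change of 0.63 ± 0.50 (SE). The opposite order was seen in Pcdhga12, at 16.7, 9.3 and 9.4 against 8.0, 7.4 and 8.4, and in 2.11% of all features. Each of these 3 had a limma adjusted p of 1.0. Pcdhgc5, which like Pcdhgc3 is a C-type gene, stood at 38.9, 61.8 and 101 against 79.9, 118 and 274; it was higher in each pair by 1.02, 0.92 and 1.43 on the log2 scale, and the groups overlapped. Pcdhgb2 and Pcdhgb6, the next highest per exon length, averaged 80.3 ± 9.3 against 116 ± 27.4 and 76.3 ± 27.3 against 95.6 ± 30.8 scaled reads.

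**Figure D4:**
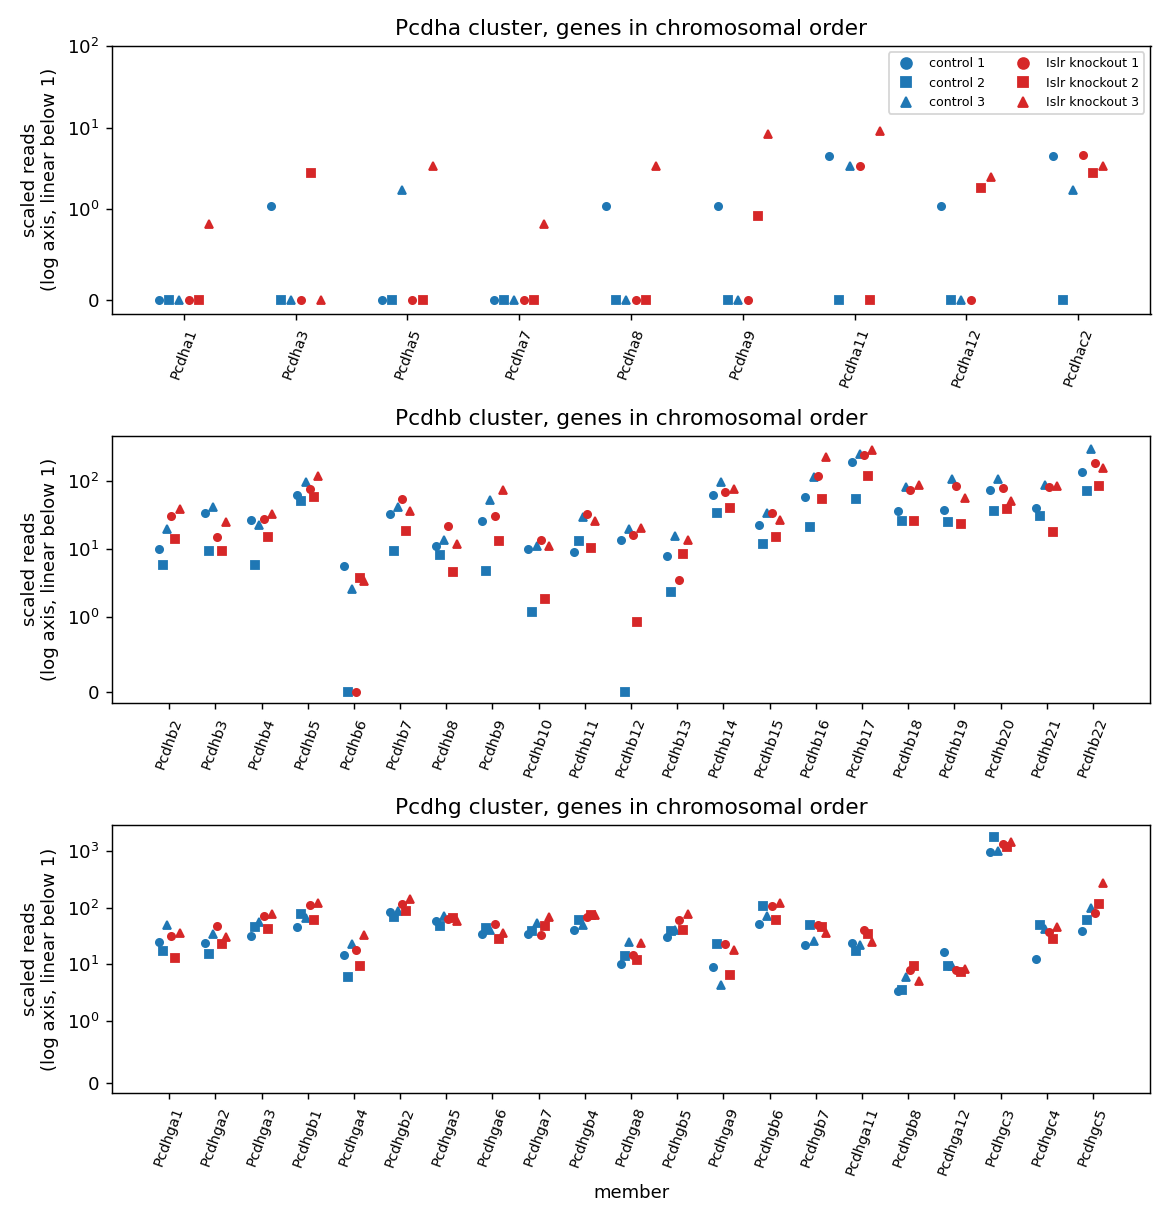
Scaled reads (log axis, linear below 1) of all 51 clustered protocadherin genes in chromosomal order, 1 point per library, colour for group label and shape for replicate number. The alpha genes stayed at or below 9.2, the beta genes were lowest in the square symbols of number 2 for 17 of 21, and Pcdhgc3 stood above the other gamma genes.

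The beta cluster showed a different pattern, which followed the replicate numbers. Of its 21 genes, 17 were lowest in both libraries of number 2 (81.0%), against 13.6% of all features tested. When any 1 library was left out the count lay between 17 and 19, but by its definition it could not fall there. The summed beta reads were 902, 417 and 1540.1 under the control label and 1294, 572 and 1449 under the knockout label. Both number 2 libraries were thus below the other 4. In the gamma cluster next door, 3 of 21 genes (14.3%) were lowest in number 2. The beta genes are near copies in 1 locus and are not independent of each other. The myocyte list given above was also lowest in number 2, at 4570 and 16781 scaled reads, and its part in the beta values was not tested.

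Between the labels the beta cluster differed little. Of 21 genes, 16 were on the higher side; the median log2 difference was 0.25, and by number it was 0.42, 0.32 and -0.05. Pcdhb17, the highest with 18.5% of the cluster's reads, stood at 191, 53.6 and 254 scaled reads against 243, 118 and 283. Pcdhb22 stood at 134, 71.1 and 292 against 187, 84.0 and 154, and Pcdhb5 at 62.2, 50.1 and 98.0 against 76.4, 57.2 and 119. In each of these genes number 2 was lowest under both labels. Pcdhb16 was higher within every pair, by 1.04, 1.33 and 0.95 on the log2 scale, at 57.8, 20.98 and 115 against 120, 54.4 and 223; the groups overlapped and its limma adjusted p was 1.0.

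The second comparison asked how much of each member's spread lay between the replicate numbers, with the label kept in the fit. limma's F test over the 3 numbers called 9 of 83 members (10.8%) at an adjusted p under 0.05, against 6.35% of all features, and 26 members at an unadjusted p under 0.05, against 27.0% of all. The called members were Dchs1, Cdh18, Pcdh1, Cdh13, Pcdh20, Pcdhb9, Pcdhb12, Pcdhb16 and Pcdhb17. What a number marks is not given in the labels.

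Dchs1, the Dachsous ligand of Fat4, stood at 1099 and 1461 scaled reads in the control and knockout libraries of number 1, at 341 and 292 in number 2 and at 188 and 330 in number 3. Number 1 was far above the others under both labels (limma adjusted p = 0.0099 over numbers, and 0.028 in edgeR). Cdh18, a type II cadherin of the nervous system, was nearly absent from number 1, at 5.6 and 1.1 scaled reads, and stood at 43.1 and 34.1 in number 2 and at 75.9 and 38.5 in number 3 (limma adjusted p = 0.016). Pcdh1 was low in number 1, at 322 and 332, against 701 to 1459 in the other 4 libraries (limma adjusted p = 0.027).

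Cdh13 was highest in number 1, at 2313 and 2966, and lowest in number 2, at 864 and 1312 (limma adjusted p = 0.037). The beta genes Pcdhb12, Pcdhb16, Pcdhb17 and Pcdhb9 were all lowest in number 2, where Pcdhb12 fell to 0 and 0.92 scaled reads against 13.3 to 20.1 elsewhere. Their limma adjusted p ran from 0.028 to 0.044. Pcdh20 was lowest in number 1, at 11.1 and 17.1, and had an adjusted p of 0.046 in limma.

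**Figure D5:**
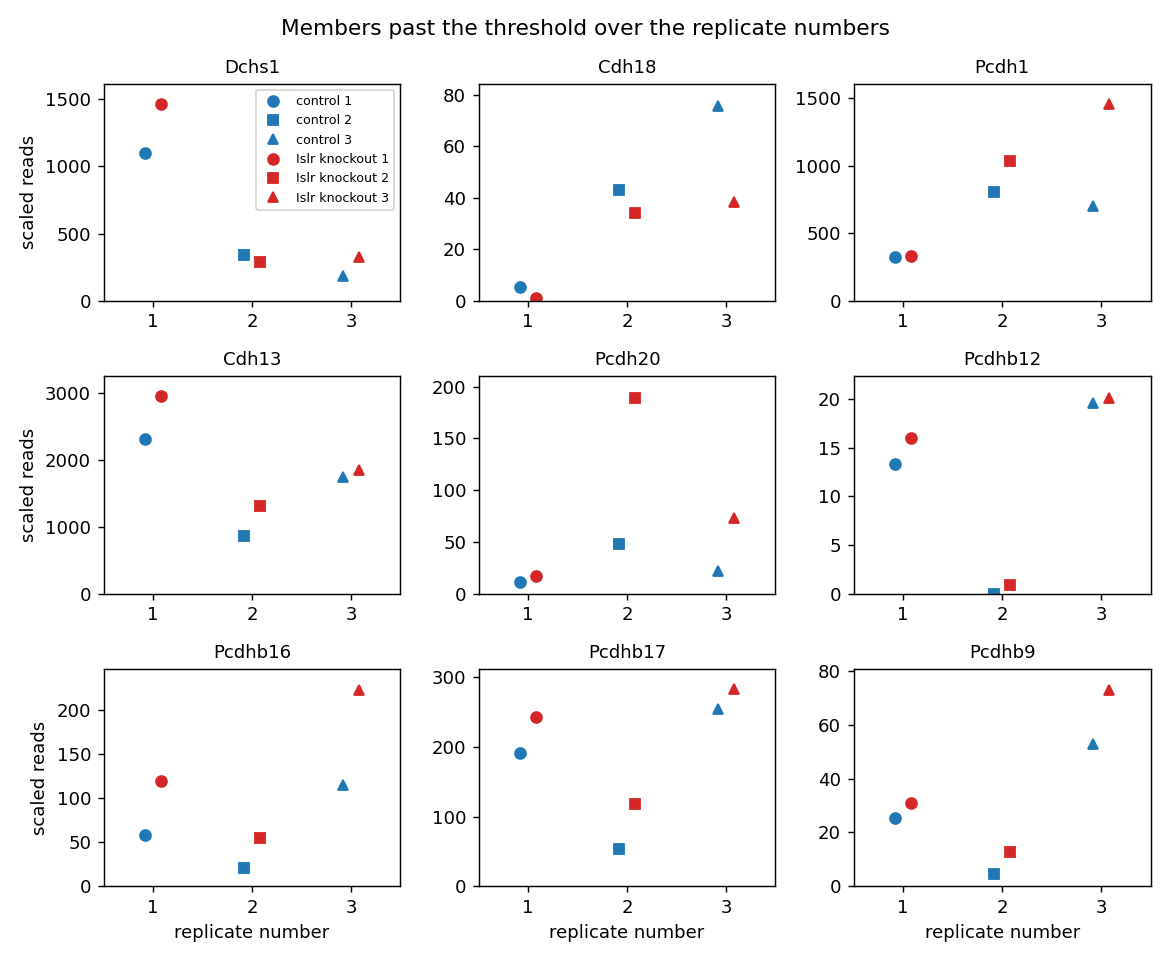
Scaled reads (linear axis from 0) of the 9 members past the limma threshold over replicate numbers, by number, colour for the group label. Dchs1 was highest in number 1 under both labels, Pcdh1 and Cdh18 lowest there, and the 4 beta genes lowest in number 2.

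These calls depended on the test, and their dependence on single libraries could not be judged. edgeR called 1 of 67 members, Dchs1, against 3.62% of its features, and DESeq2 called 12 of 71, against 17.5%. In edgeR the adjusted p of the other 8 limma calls lay between 0.052 and 0.076. When a library is left out, its replicate number rests on a single library, so such fits cannot show whether the calls hold.

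Genes that work with cadherins were counted in 9 lists, and limma called 0 of them between the labels, as it called 0.0% of all features. The partner genes whose values are given had the smallest limma p between the labels in their list. They therefore do not stand for the list as a whole. Of 16 catenins and cytoplasmic partners, which couple cadherins to actin, 8 were on the higher and 8 on the lower side, and the median log2 difference was -0.02. Afdn, which links nectins to actin, averaged 708 ± 138 scaled reads under the control and 1086 ± 340 under the knockout label, and vinculin (Vcl) 2734 ± 1083 against 3845 ± 1952. Of 10 shedding enzymes, 8 were on the higher side and the median log2 difference was 0.10; the convertase Pcsk6 averaged 176 ± 72.05 against 245 ± 45.0 and Adam10, a sheddase of classical cadherins, 1959.7 ± 292 against 2272 ± 130.

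Of 5 nectins in the table, 5 were on the higher side and the median log2 difference was 0.24; Nectin1 averaged 813 ± 275 against 1051 ± 263 scaled reads, and Nectin4 3.7 ± 0.50 against 12.9 ± 9.19. Desmosomal cadherins were almost absent, with 2 of 5 tested; Dsc2 averaged 20.7 ± 16.1 against 25.2 ± 15.4 and Dsg2 0.28 ± 0.49 against 2.7 ± 1.86. Calsyntenins and cadherin-related genes were split 4 against 4, with Cdhr1 at 17.6 ± 9.36 against 29.4 ± 9.59 and Cdhr5 at 40.1 ± 17.2 against 26.3 ± 5.25. Beyond the nectins and the desmosomal genes, no list had all its tested members on 1 side.

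Of 17 planar polarity partners, 12 were on the higher side and the median log2 difference was 0.12. Prickle2, a cytoplasmic polarity protein, was the one gene of the 9 lists with an unadjusted p under 0.05. It stood at 77.8, 24.5 and 81.8 scaled reads in the control libraries and at 111, 115 and 379 in the knockout libraries, so the groups did not overlap, with a log2 fold change of 1.63 ± 0.65 (SE; limma adjusted p = 1.0). Dvl3 averaged 1119 ± 173 against 1395 ± 347. Of 14 genes of the WAVE complex, which Pcdh19 and related protocadherins recruit, and other tail partners, 10 were on the higher side and the median log2 difference was 0.15; Ptk2b averaged 441 ± 83.5 against 713 ± 286 and Cyfip2 109.5 ± 69.7 against 191 ± 88.9.

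Of 18 regulators of clustered protocadherin promoters, such as CTCF and cohesin, 7 were on the higher side and 11 on the lower, and the median log2 difference was -0.03. Rest averaged 1331 ± 310 against 1664 ± 452 scaled reads and the cohesin subunit gene Smc1a 3232 ± 929 against 2732 ± 748. Of 10 cadherin-switch transcription factors, 4 were on the higher and 6 on the lower side, and the median log2 difference was -0.03; Twist1 averaged 81.7 ± 51.7 against 174 ± 112 and Prrx1 2117 ± 707 against 2720.2 ± 586. Over replicate numbers limma called 8 of the 99 distinct genes of these lists (8.08%), against 6.35% of all features. They were 4 genes of the catenin list (Ablim1, Lima1, Ctnnal1 and Ctnnd2), 2 of the WAVE list (Fyn and Ret), and 1 each of the nectins (Nectin2), the promoter regulators (Dnmt1) and the cadherin-related list (Ret again).

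In the authors' deposited table, 8 of 92 members had an unadjusted p under 0.05, all higher: Cdh5, Cdh17, Cdh19, Pcdh7, Pcdh9, Pcdh19, Pcdh20 and Pcdhgc5. The same table put 1.04% of its 27283 genes with a p-value there in that direction and 0.128% in the other. The authors' deposited table of GO terms listed 9 of 168 genes of homophilic adhesion against 2.14 expected, and 8 of these 9 are members; the other is Nrcam. These values come from the same comparison and libraries and add no separate evidence.

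Among 11413 genes with a mean of at least 50 scaled reads outside the family, the patterns most like that of Pcdh19 over the 6 libraries were those of Itgav, Gid4, Wwtr1, Hectd2 and Ppp1r13b, with Pearson r between 0.935 and 0.944 on log2 values. Itgav, the integrin alpha V gene, stood at 2364, 3329 and 1687 scaled reads in the control libraries and at 3898, 4274 and 3735 in the knockout libraries. Wwtr1, which encodes the coactivator TAZ, stood at 2687, 2904 and 2326 against 3286, 3737 and 3708. Both repeated the order of Pcdh19 in that number 3 was the lowest control and number 2 was the highest knockout library. The patterns most like that of Cdh15 were those of Gpr37, Etfbkmt, Zfp667, Gm20300 and Apbb1, with r between 0.989 and 0.997. Gpr37, an orphan receptor gene, stood at 78.9, 20.98 and 209 against 84.4, 11.1 and 29.3, high in control 3 and low in number 2 as Cdh15 was. These correlations describe 6 libraries that share 3 replicate numbers.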

How the data were processed

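RNA of 6 satellite cell libraries (3 labelled control, 3 labelled Islr knockout) was sequenced. Tools listed in the submitters' processing notes, without roles, are edgeR 3.18.1, DESeq2 1.16.1, HTSeq, HISAT2 2.0.5 and Trimmomatic; the sources used here do not give the strand setting or annotation of the counting. In the authors' deposited main table each library has a signal, gene read counts divided by 1 size factor per library (0.8581 to 1.1948), beside FPKM, log2 fold changes and p-values, per the file headers. The deposited raw count table holds 0 members; in the 480 genes it shares with the main table all counts were equal. The GO table deposited by the authors gives an expected score, the number of genes expected per term. Another 6 per-sample columns were not used, and 36 damaged lines were dropped.

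Whole reads were recovered for 100.0% of values within 0.01. limma 3.58.1 (trend, robust, two-sided, Benjamini-Hochberg over 20344 features with a mean of at least 1) was run on log2(scaled reads + 1) for the labels, and as an F test over replicate numbers with the label as a covariate. edgeR 4.0.16 called 0 genes and DESeq2 1.42.0 called 0 between the labels on the recovered reads. The fits were tested on simulated data with changes larger than most differences seen here. In the simulation of the labels there was no effect of replicate number, so it does not show how the fits perform on data such as these. Deviations of same-numbered libraries correlated at 0.689, 0.633 and 0.625 over 14280 genes, so a fit with a replicate block was added; the pairing comes from the data, as the labels do not say what a number marks.

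Coordinates are on GRCm38: 26940 of 27093 Ensembl genes, among them all 92 members, had the same start and end in GENCODE M21. Marker and partner lists, 9 of each, are described by counts.

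Members were named by rule: 11 fixed genes, the 3 highest per exon length in each subfamily, those with a mean of at least 10 whose groups did not overlap, and the 6 with the smallest p in each fit; others were named after their values were seen. The members and lists were chosen with earlier results of these data known. Alternatives were other tools, scalings (TMM, library size), pseudocounts (0.5 and 0.1), filters (a mean of at least 10, none), the block and leaving out libraries.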

Additional observations from a re-analysis of the deposited data

How the results depend on the processing

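Between the labels, 0 members passed under every alternative that was run, and the lowest adjusted p of any of the 34 named members was 0.2195. The count of all genes was 0 throughout, except with the replicate block in DESeq2, which was chosen after seeing the data and called 7 genes and 0 members. With the replicate block in limma, which uses the pairing of numbers, it was 0 as well. Members on the higher side numbered 69, and 49 to 73 with 1 library left out; those whose groups did not overlap went from 7 (8.43%) to between 9 (10.8%) and 20 (24.1%), while the share of all features went from 2.65% to between 4.18% and 9.7%, fewer libraries being compared. Over replicate numbers, the 1291 genes and 9 members called became 514 and 1 in edgeR, 566 and 2 with a pseudocount of 0.1, 795 and 5 with a mean of at least 10, 3309 and 16 with no filter, and 2658 and 12 in DESeq2. With 1 library left out they ran from 100 to 2271 genes and 0 to 7 members; apart from the smaller design, the cause was not tested.

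Of 671 alternative log2 fold changes of named members 649 kept their sign, and 22 members had no reversal. Leaving out 1 library gave ranges across 0 for Cdh13 (-0.0565 to 0.65), Cdh18 (-2.02 to 0.41), Celsr3 (-0.26 to 0.96), Dchs1 (-0.41 to 1.04), Pcdha11 (-0.46 to 1.22), Pcdhb12 (-0.96 to 1.51), Pcdhb17 (-0.13 to 0.98), Pcdhb22 (-0.56 to 0.45), Pcdhb5 (-0.0268 to 0.52) and Pcdhgc3 (-0.0318 to 0.42). In the paired fit, leaving out number 3 reversed Pcdha11 (-0.15), Pcdha9 (-0.0674), Pcdhb22 (0.36) and Pcdhgc3 (-0.0654), and leaving out number 1 reversed Pcdhgb6 (-0.02) and Pcdhgc3 (-0.0457). None of these members had passed the threshold. Depth limits the alpha cluster most, with no gene of a mean of 10 scaled reads.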
